A study of Ovis aries with 91 samples.

Results

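These results concern the genes whose RNA was lower in paced sheep than in control sheep both in whole tissue and in isolated cardiomyocytes of the atrial appendages. For each gene the paced change was the mean of all transition and chronic columns minus the mean of all control columns, left and right appendages together. A gene was taken when its mean log2 CPM was 1 or more both in whole tissue and in cardiomyocytes and its paced change was -0.8 or lower in each. Values were given for 13803 genes, of which 12667 had values in both preparations of the appendages; 10756 of these had the required level, and 81 had the required change in both. The rule left out 10 of the 81, so 71 genes are described here.

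Atrial fibrillation is a fast and irregular rhythm of the atria, the upper chambers of the heart. Rapid atrial rates are known to remodel the atrium: ion channels, calcium handling and contractile proteins of the muscle cells change, and fibrous tissue between the cells increases. Whole atrial tissue holds cardiomyocytes together with fibroblasts, vessel cells and immune cells, whereas isolated cardiomyocytes are a preparation of the muscle cells. In bulk samples of either kind fewer cells of a type and less RNA per cell cannot be told apart.

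RNA was sequenced from sheep in which atrial fibrillation had been brought about with a rapid pacing device placed in the right atrium. The transition and the chronic sheep are named for stages of this progression, and both are called paced here. The appendage control group joins sheep S3 and S4, labelled sham, with sheep C1, labelled control. Whole tissue and cardiomyocytes of the left and the right atrial appendage were each measured in 3 sheep per state (controls S3, S4 and C1 in both tables; transition D24, D27 and D30 in tissue and D23, D24 and D27 in cardiomyocytes; chronic D15, D16 and D19 in tissue and D16, D19 and D20 in cardiomyocytes), and 7 sheep are in both. The posterior left atrium, the wall around the entry of the pulmonary veins, was measured as tissue in 6 transition sheep (G5, G13, G26, G34, D24 and D27) and 6 control sheep (G21, G32, G36, S3, S4 and C1). The control sheep with G numbers are labelled sham and carry the word control in their titles. The transition sheep with G numbers carry the word saline in their titles. Strain, age and pacing time are not given in the labels used here, and any part of the treatment that the sham sheep shared with the paced sheep is not described there.

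The values are the authors' log2 CPM, read counts scaled to the size of each library, with 1 column per sheep and region. Listed reads per column ranged between 6.24e+06 and 2.24e+07 for whole tissue and between 5.31e+06 and 1.24e+07 for cardiomyocytes. For the posterior left atrium the depth is unknown. Gene IDs are Ensembl sheep IDs, and 0 of them could be paired with a symbol here. Genes are therefore named by ID without a role, pathway lists could not be applied, and the labelled tissues and cells could not be checked against marker genes.

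One library stood apart. Over 35 genes that are on in some sheep and off in others, the left tissue library labelled D27 matched the other libraries of D27 in 21 or 22 genes and a library of another sheep in up to 31. Libraries of the other sheep matched their own animal in 28 to 34 of these genes and a library of another sheep also in up to 31. What set the left D27 library apart was the low match with its own animal. In D27 tissue the left minus right difference of 16 genes was more than 4 on the log2 scale away from the median of the other sheep, against 0 to 9 in the other tissue sheep. Whole tissue results are given with this library. The main counts of members in the tissue tests are also given without it where they change. Without it the rule took 74 genes, and all 71 were among them.

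The members were chosen by their paced change, so the following values describe them and are not tested. In whole tissue their paced changes lay between -3.46 and -0.82 with a median of -1.16, and in cardiomyocytes between -3.48 and -0.82 with a median of -1.16. The medians correspond to 0.446 and 0.449 times the control level. Over the 10756 genes with the required level the median paced change was 0.00 in tissue and -0.01 in cardiomyocytes. Of these genes 1.43% reached -0.8 in tissue, 2.22% in cardiomyocytes and 0.753% in both. The member closest to the limit, ENSOARG00000011327, had changes of -0.82 in tissue and -1.09 in cardiomyocytes. The gene just outside it, ENSOARG00000003085, had -0.92 in tissue and -0.79 in cardiomyocytes. Within 0.1 of the limit lay 21 members, and 41 genes lay as close on the other side.

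**Figure D1:**
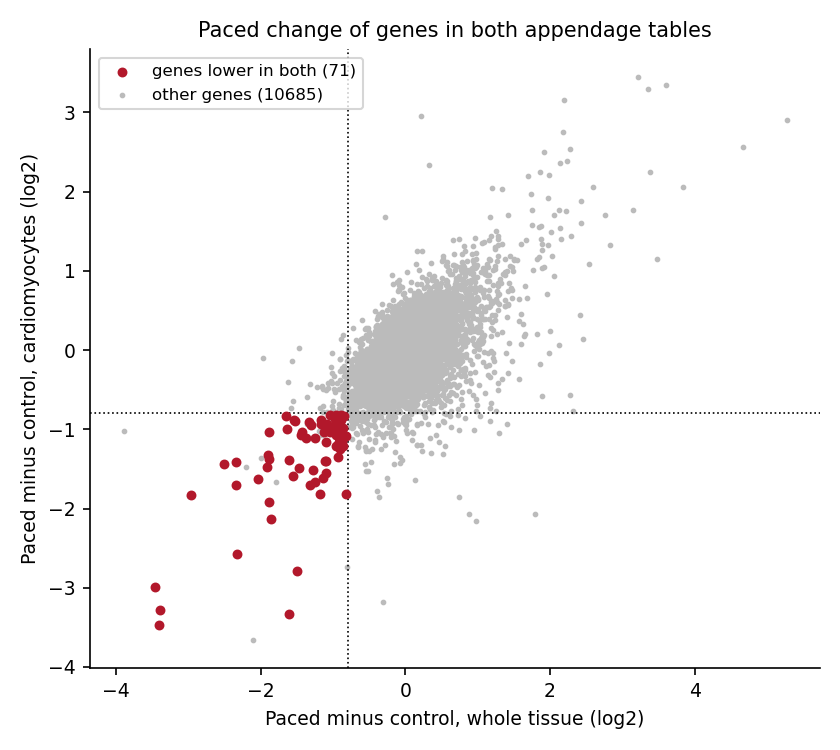
Each point is a gene with a mean log2 CPM of 1 or more in both appendage tables, placed by its paced minus control difference in whole tissue (x axis, log2) and in cardiomyocytes (y axis, log2); dotted lines mark -0.8, red points are the 71 members and grey points are all other genes, including the 10 left out by the rule. The members reach from -3.46 to -0.82 in tissue and from -3.48 to -0.82 in cardiomyocytes, while most grey points lie around 0.

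The decrease was spread over the libraries. In whole tissue the median difference of the members from their control mean was -0.12 to 0.11 in the 6 control libraries, -1.18 to -0.91 in the 6 transition libraries and -1.65 to -0.96 in the 6 chronic libraries. In cardiomyocytes the medians were -0.08 to 0.12 in control, -1.36 to -0.71 in transition and -1.57 to -0.88 in chronic libraries. Each paced tissue library had 63 to 70 of the 71 members below their control mean, and each paced cardiomyocyte library 59 to 70. The median over the genes with the required level stayed between -0.03 and 0.03 in every library.

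**Figure D2:**
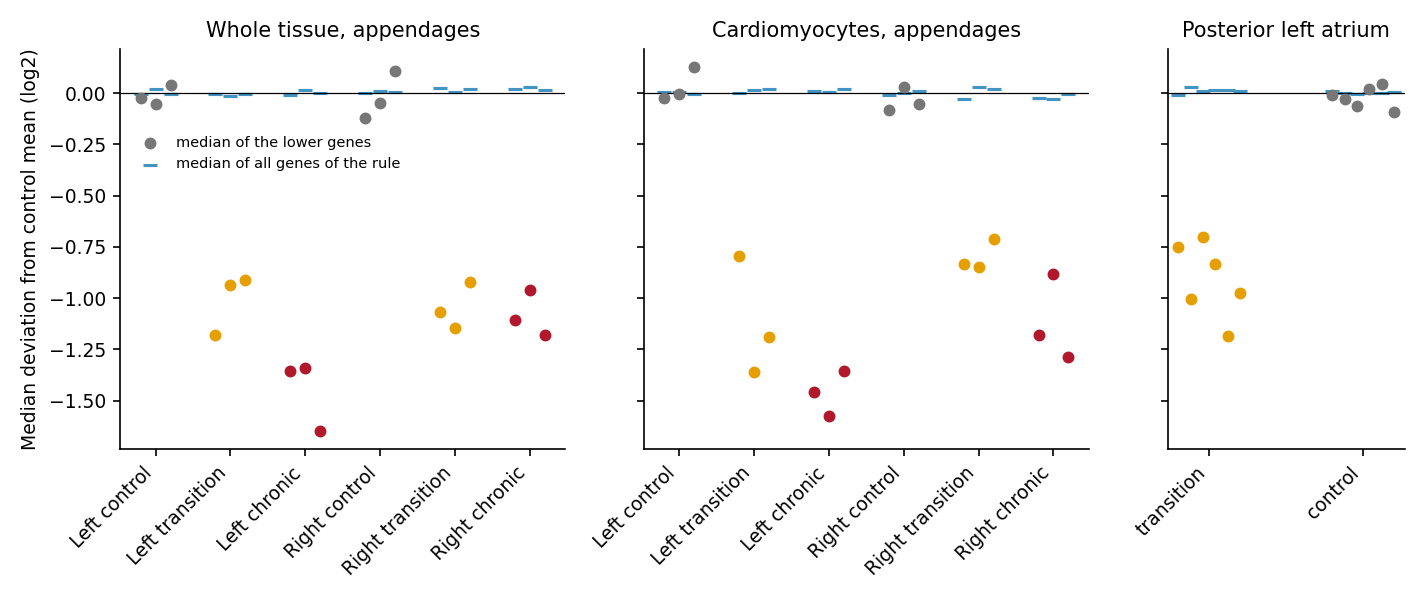
Points give, for each library, the median over the members of the difference from the control mean of the same table and side, or of the same set of sheep in the posterior left atrium (log2), with control libraries in grey, transition in orange and chronic in red; blue ticks give the same median over all genes with the required level. Members of paced libraries sit between -1.65 and -0.70, and those of control libraries between -0.12 and 0.12.

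Members differed in how evenly the decrease was shared by sheep. In whole tissue 12 members had all 12 paced columns below all 6 control columns, while 0.623% of the genes with the required level did. In cardiomyocytes 15 members did, beside 1.47% of those genes, and 7 members did in both tables, beside 0.112%. These shares follow in part from the rule, since it selected low paced values. Against the 4 control groups there are 8 differences per member (2 preparations, 2 sides, 2 states); 63 members were below 0 in all 8 of them and 15 were at -0.8 or lower in all 8. At the other end, 8 members had a range over 4 on the log2 scale among control sheep or among paced sheep in at least one table. The paced range took transition and chronic sheep together, so it can hold a difference between these states. In 18 members in tissue and 17 in cardiomyocytes the range among the 3 control sheep was larger than the paced decrease itself. The median range among control sheep was 0.90 over the members and 0.32 over the genes with the required level in tissue, and 0.73 and 0.33 in cardiomyocytes.

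The member with the lowest summed change was ENSOARG00000005549, and it was on in some sheep and off in others of each state. In left tissue it had -0.02, 9.28 and 9.09 in control sheep S3, S4 and C1, then -4.17, -3.97 and 7.21 in transition sheep D24, D27 and D30, and -3.75, 8.66 and 2.86 in chronic sheep D15, D16 and D19. In left cardiomyocytes it had -4.27, 9.09 and 8.74 in control sheep S3, S4 and C1, then 0.01, -4.39 and 8.97 in transition sheep D23, D24 and D27, and 8.52, 1.43 and -3.86 in chronic sheep D16, D19 and D20. Values from -5.55 to -3.49 are libraries with 0 reads, where the log2 value reflects the depth and the 0.5 reads added by the authors. The groups overlapped over almost their whole range: control S3 had 12 reads in left and 0 in right tissue, and chronic D16 was close to controls S4 and C1. In D27 the gene had 0 reads in left tissue but 8.88 in right tissue, 8.97 and 8.98 in left and right cardiomyocytes and 7.19 in the posterior left atrium. As the mean levels of its groups rest on which sheep were sampled, no fold is given for this gene.

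Next in summed change was ENSOARG00000004733, which was present in all controls and low in some paced sheep. Its left tissue values were 5.01, 5.63 and 4.80 in control sheep S3, S4 and C1, then 2.09, 0.42 and 5.003 in transition sheep D24, D27 and D30, and 4.09, 0.85 and -2.52 in chronic sheep D15, D16 and D19. Its left cardiomyocyte values were 4.46, 5.28 and 4.49 in control sheep S3, S4 and C1, then 4.33, 1.76 and -0.22 in transition sheep D23, D24 and D27, and 1.52, -0.53 and 3.87 in chronic sheep D16, D19 and D20. Chronic D19 was lowest in both preparations and had 0 reads in right tissue and in right cardiomyocytes. Transition D30 overlapped the controls in left tissue.

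The members with the highest mean levels in whole tissue were ENSOARG00000004429 and ENSOARG00000008800, and they differed in evenness. In whole tissue ENSOARG00000004429 ran from 6.73 to 7.22 with a median of 6.98 in the 12 paced columns, and from 7.60 to 8.15 with a median of 7.86 in the 6 control columns. In cardiomyocytes it ran from 6.51 to 7.36 with a median of 6.86 in the paced columns, and from 7.42 to 8.12 with a median of 7.69 in the control columns. Paced and control columns did not overlap in either table. Its means were 6.97 ± 0.14 (SD, n = 12 columns of 6 sheep) in paced tissue and 7.86 ± 0.25 (SD, n = 6 columns of 3 sheep) in control tissue.

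The tissue decrease of ENSOARG00000008800 came from 2 chronic sheep. In left tissue it had 8.99, 8.09 and 9.60 in control sheep S3, S4 and C1, then 7.96, 8.44 and 9.73 in transition sheep D24, D27 and D30, and 3.14, 3.17 and 9.30 in chronic sheep D15, D16 and D19. The transition sheep and chronic D19 lay in the control range or close to it, and D15 had 0 reads in right tissue. In cardiomyocytes D16 was low again, at 7.13 in the left and 7.80 in the right appendage, as was transition D23 at 7.58 and 7.33, and the control columns ran from 9.64 to 11.78. In the posterior left atrium its mean was 10.17 ± 0.72 in transition sheep and 9.06 ± 0.85 in control sheep (SD, n = 6 each), a difference of 1.12 ± 0.40 (SE) that did not pass (adjusted p = 0.0681, limma).

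**Figure D3:**
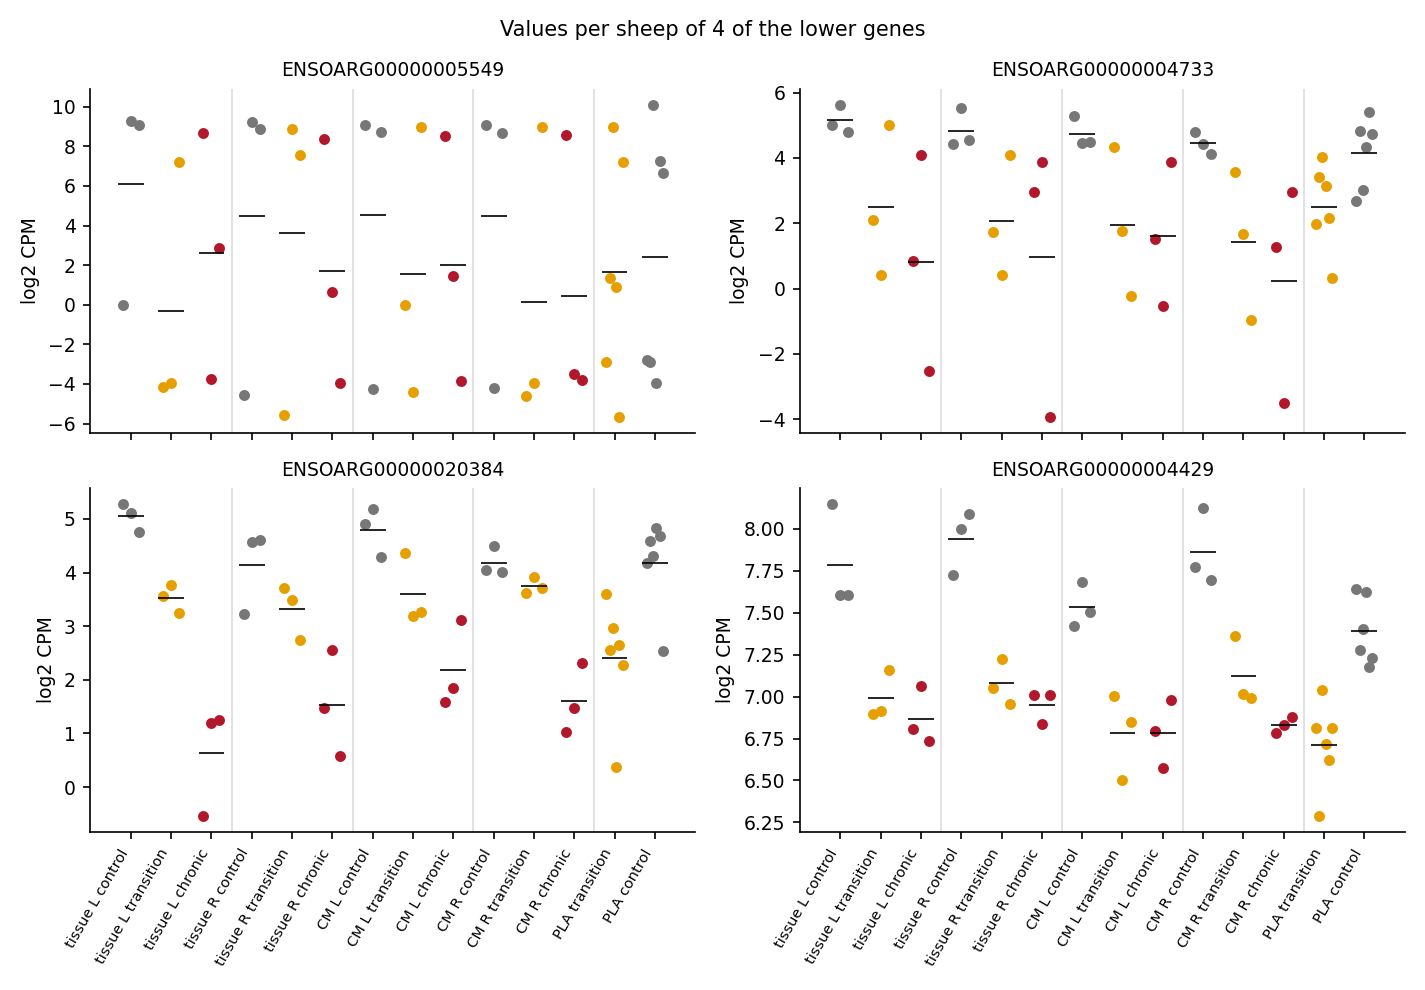
Each point is the log2 CPM of a sheep in whole tissue (tissue) or cardiomyocytes (CM) of the left (L) or right (R) appendage, or in the posterior left atrium (PLA), for 4 members; grey is control, orange transition and red chronic, and short lines are group means. ENSOARG00000005549 jumps between about 9 and values of 0 reads within groups, whereas paced and control columns of ENSOARG00000004429 are apart in both appendage tables.

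The posterior left atrium was not used to choose the members, so it gives a test of the same genes in another region. Transition sheep were compared with control sheep by limma on the log2 values, with the set of sheep (G numbers or S, C and D names) as a term and adjustment over all 12035 genes with a mean of 0 or more. All 71 members were in that table and 70 passed its filter, which ENSOARG00000007634 did not. The deposited values held almost no difference between the sets, and whether a correction before deposit affects the p-values was not tested. Of these 70, 40 were lower in transition sheep at an adjusted p under 0.05 and 0 were higher. Of all genes tested 8.68% were lower and 8.84% higher. The median change was -0.96 over the members and -0.01 over all genes, and 66 of 70 members had a change below 0, while 50.8% of all genes did. A change of -0.8 or lower was found in 43 members and in 5.91% of all genes. In 15 members every transition sheep lay below every control sheep, which held for 3.28% of all genes.

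Of these 12 sheep 5 also gave appendage samples, and S3, S4 and C1 are the controls by which the members were chosen. The 7 sheep with G numbers gave none, so they are animals that the rule did not use. In the 4 transition and 3 control G sheep alone, 21 of 70 members were lower in transition sheep and 0 higher, while 2.5% of all genes were lower and 3.57% higher. All 21 were among the 40 of the full comparison. The median change was -0.84 over the members and -0.01 over all genes, and 60 of 70 members were below 0, while 51.6% of all genes were. In 32 members every G transition sheep lay below every G control sheep, beside 9.8% of all genes. The count of lower members fell to 13 without control G21, beside 187 of all genes, and to 12 without control G32, beside 65. Without G32 1 member and 186 of all genes were called higher. In the 5 sheep with S, C and D names alone 9 members were lower, beside 112 of 12035 genes lower and 131 higher. Of the 40 and 21 called members, 39 and 21 were among the 63 whose appendage range stayed within 4 among control and among paced sheep.

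**Figure D4:**
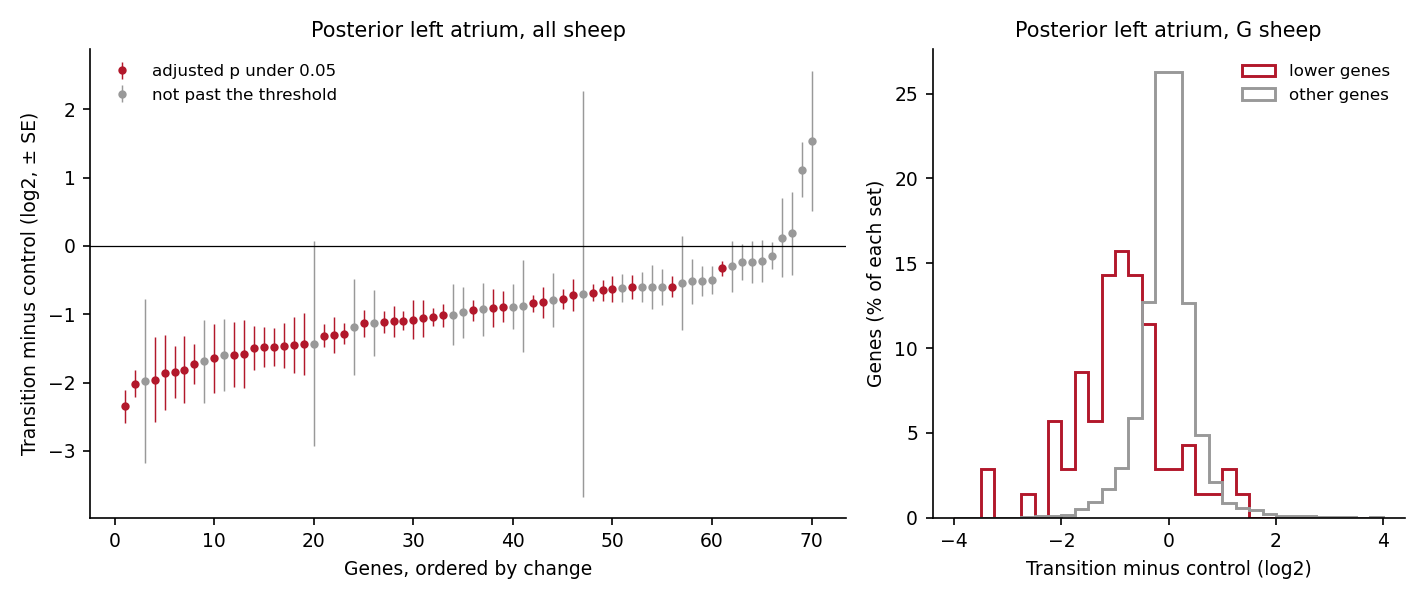
Left, the transition minus control difference of 70 members in the posterior left atrium of all 12 sheep (log2, bars are SE), ordered by size, with red for an adjusted p under 0.05; right, the share of members (red) and of other genes (grey) per change in the G sheep alone, in steps of 0.25. On the left 40 members are red and all of these lie below 0; on the right the members centre near -0.84 and the other genes near 0.

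The largest decrease among members that passed in the posterior left atrium was that of ENSOARG00000015182. It had 3.49, 4.64, 4.07, 4.03, 3.97 and 3.18 in transition sheep G5, G13, G26, G34, D24 and D27, and 6.51, 6.17, 6.15, 6.81, 6.13 and 5.39 in control sheep G21, G32, G36, S3, S4 and C1. The groups did not overlap, in the G sheep or in the others. The fitted change was -2.35 ± 0.24 (SE, adjusted p = 4.4e-05, limma), which is 0.197 times the control level, and -2.21 ± 0.23 (adjusted p = 0.000934, limma) in the G sheep.

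The next largest decrease was that of ENSOARG00000011858, with 2.47, 3.57, 3.41, 2.88, 3.01 and 2.90 in transition sheep G5, G13, G26, G34, D24 and D27, and 5.23, 5.19, 5.23, 5.08, 5.06 and 4.25 in control sheep G21, G32, G36, S3, S4 and C1. The G controls were close together, C1 was lowest of the controls, and every transition sheep was below it. The change was -2.01 ± 0.20 (SE, adjusted p = 2.95e-05, limma).

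In the G sheep the largest decrease was that of ENSOARG00000010933, one of the 7 members without overlap in both appendage tables. It had 0.46, 0.55, -0.56 and 0.40 in transition sheep G5, G13, G26 and G34, and 3.18, 2.48 and 2.57 in control sheep G21, G32 and G36. The groups did not overlap in these sheep. The change was -2.53 ± 0.37 (SE, adjusted p = 0.0038, limma). In the other set D27 had 1.35 and overlapped control S3 at 1.11.

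Of the members most lowered by the rule, ENSOARG00000005549 had 1.64 ± 5.65 in transition sheep and 2.40 ± 6.26 in control sheep (SD, n = 6 each). Its change was -0.70 ± 2.97 (SE, adjusted p = 0.903, limma), an error too wide to show a shift of the size seen in the appendages. ENSOARG00000004733 had 2.505 ± 1.32 in transition sheep and 4.16 ± 1.08 in control sheep (SD, n = 6 each), and its change of -1.69 ± 0.60 (SE) did not pass (adjusted p = 0.0695, limma). In the G sheep alone its change was -0.37 ± 0.54 (SE, adjusted p = 0.748, limma). ENSOARG00000004429 fell by 0.69 ± 0.13 (SE, adjusted p = 0.00278, limma) to 6.71 ± 0.25 in transition sheep, against 7.39 ± 0.20 in control sheep (SD, n = 6 each). Across the 70 members the change in the G sheep had a Spearman rho of 0.15 with the paced change in tissue and -0.10 with that in cardiomyocytes. These points share libraries within each axis and the range of the x axis was cut by the rule.

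The rule averaged transition and chronic columns, so it did not use the difference between these states directly. It took 108 genes from chronic and 63 from transition columns alone, so it can favour genes with the larger chronic decrease. The shares of members below 0 given here may follow in part from this. In tissue the median of chronic minus transition was -0.23 over the members and 0.00 over all 12333 genes tested, and 53 of 71 members were below 0, beside 49.8% of all genes. In cardiomyocytes the medians were -0.22 over the members and -0.01 over all 12279 genes, and 56 of 71 members were below 0, beside 52.0% of all genes. Both differences were negative in 43 members. Without the left tissue library labelled D27 the tissue median was -0.25, with 47 members below 0, beside 49.3% of all genes. Without chronic D19 the tissue median was -0.11 with 41 members below 0, beside 49.85% of all genes. It was -0.36 without chronic D15, and 43 members were below 0 without transition D30, beside 50.5% of all genes. In the left appendage alone the tissue median was -0.53 with 57 members below 0, beside 49.7% of all genes. In the right appendage alone it was -0.05 with 39 members below 0, beside 50.5%, a share near that of all genes. With a pseudocount of 10 reads the medians were -0.09 in tissue and -0.12 in cardiomyocytes, and those of all genes were 0.03 and 0.04. In each 47 members were then below 0, beside 44.1% of all genes in tissue and 41.7% in cardiomyocytes. In cardiomyocytes the median was -0.40 without transition D24. The side medians against control were -1.49 in chronic and -0.99 in transition left tissue, and -1.13 in chronic and -1.07 in transition right tissue. In cardiomyocytes they were -1.60 in chronic and -1.20 in transition left samples, and -1.10 in chronic and -0.95 in transition right samples.

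Few single members passed between these states. In tissue 1 member was lower and 1 higher in chronic sheep, while 0.0486% of all genes were lower and 0.0649% higher, by limma. Without the left tissue library labelled D27 no member passed, nor did any other gene, by limma, and 18 members and 1333 of all genes then had an unadjusted p under 0.05. No member passed in tissue without any one of sheep C1, D24, D27, S3 or S4, and 1 passed without D16 or without D30. All genes passing were 2 higher and 4 lower without D16, and 1 higher and 0 lower without D30. In cardiomyocytes 0 members passed in limma, beside 0.00814% of all genes lower and 0.0163% higher, while 19 members had an unadjusted p under 0.05, of which 18 were lower in chronic sheep. In cardiomyocytes 4 members passed without D23, beside 76 of all genes higher and 23 lower. Without D20 1 member passed, beside 1 gene higher and 2 lower. With the full tables, 22 members had an unadjusted p under 0.05 in tissue, 17 of them lower in chronic sheep. The share of all genes with such a p was 10.8% in tissue and 8.32% in cardiomyocytes.

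The member that was lower in chronic tissue was ENSOARG00000020384. In left tissue it had 5.28, 5.11 and 4.76 in control sheep S3, S4 and C1, then 3.56, 3.76 and 3.24 in transition sheep D24, D27 and D30, and 1.20, -0.55 and 1.26 in chronic sheep D15, D16 and D19. In right tissue it had 3.23, 4.57 and 4.61 in the same controls, then 3.71, 3.49 and 2.73 in transition sheep and 2.55, 1.48 and 0.58 in chronic sheep. The 3 states were in this order without overlap in the left appendage, while control S3 lay inside the transition range in the right one. Chronic minus transition was -2.33 ± 0.43 (SE, adjusted p = 0.0483, limma), with all 6 chronic columns below all 6 transition columns. Its adjusted p was 0.0015 to 0.779 over the alternatives tried. The same gene had the smallest p of the members in cardiomyocytes. There it averaged 1.89 ± 0.74 in chronic and 3.68 ± 0.44 in transition columns (SD, n = 6 columns of 3 sheep each). That change of -1.78 ± 0.33 (SE) did not pass (adjusted p = 0.0893, limma).

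The member that was higher in chronic tissue, ENSOARG00000007634, was lowest in the transition state. Its summed paced change followed that of ENSOARG00000004733, and its tissue change of -3.46 was the lowest of all members. In left tissue it had 3.25, 3.47 and 3.61 in control sheep S3, S4 and C1, then -4.17, -3.97 and 0.51 in transition sheep D24, D27 and D30, and 2.93, 2.71 and 2.44 in chronic sheep D15, D16 and D19. D24 and D27 had 0 reads in both tissue columns, whereas D30 had 11 and 23 reads in left and right tissue. In cardiomyocytes transition D23 had 2.39 in the left and 1.74 in the right appendage, and D24 and D27 had between 0 and 4 reads. In the posterior left atrium G5, with 1.84, was apart from the other transition sheep at -5.04 to -3.48, and control G36, with -3.77, was apart from the other controls at 1.33 to 2.42. The tissue difference passed (adjusted p = 0.0477, limma), with an adjusted p of 2.3e-08 to 0.734 over the alternatives. The fit took the same correlation between the sides, 0.294, for all genes. This gene was on or off by sheep in the transition state, so its p may be too small. No fold is given because the transition mean rests on libraries with 0 reads.

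Left and right columns were pooled by the rule, so it did not directly use whether the paced change differed between the sides. The rule took 124 genes from left and 53 from right columns alone, so it can favour genes with the larger left decrease. The shares of members with a larger left decrease may follow in part from this. In tissue the left change minus the right change had a median of -0.18 over the members and -0.02 over all genes, and in cardiomyocytes -0.21 over the members and 0.01 over all genes. The left decrease was larger in 47 of 71 members in tissue, beside 53.0% of all genes, and in 52 of 71 in cardiomyocytes, beside 48.5% of all genes. No member passed the test of this difference by limma in either table, in which 0.0486% of all genes passed in tissue and 0.0244% in cardiomyocytes. An unadjusted p under 0.05 was found in 5 members in tissue and 16 in cardiomyocytes, and in 15 of these 16 the left decrease was the larger one. The count in tissue was 10 without sheep D27, beside 1080 of 12333 genes, and 3 without S4, beside 808 genes. It was 1 without the sheep as a block, beside 577 genes. Without only the left tissue library labelled D27 it was 7, beside 1044 genes. The left decrease was then larger in 49 members, beside 53.4% of all genes. The count in cardiomyocytes was 7 without control S3, beside 1137 of 12279 genes, and 8 without control C1, beside 821 genes. It was 10 without D16, beside 1272 genes, and 10 without S4, beside 1323 genes. Without the sheep as a block it was 4, beside 421 genes. In cardiomyocytes 2 members passed without D20, 1 without D23 and 1 without D24. All genes passing were 24 higher and 11 lower without D20, 2 and 1 without D23, and 1 and 1 without D24. The share of all genes with such a p was 8.44% in tissue and 11.7% in cardiomyocytes.

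**Figure D5:**
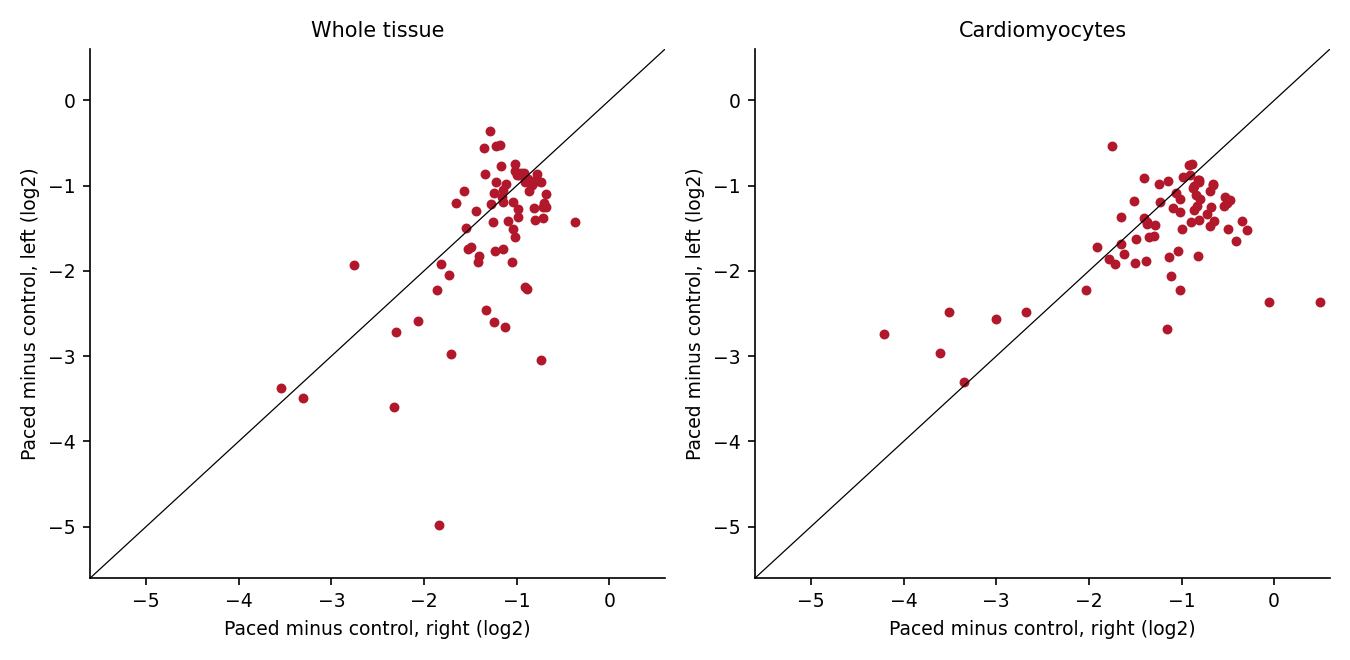
Each point is a member, placed by its paced minus control difference (log2, mean of transition and chronic) in the right appendage (x axis) and the left appendage (y axis), in whole tissue and in cardiomyocytes; the line marks equal change. In tissue 47 of 71 and in cardiomyocytes 52 of 71 members lie below the line, with a larger decrease on the left.

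The smallest p for this difference in cardiomyocytes was that of ENSOARG00000000465. In left cardiomyocytes it had 3.53, 4.59 and 3.91 in control sheep S3, S4 and C1, then 2.66, 0.36 and 1.21 in transition sheep D23, D24 and D27, and 1.99, 1.72 and 1.92 in chronic sheep D16, D19 and D20. In right cardiomyocytes it had 2.70, 3.05 and 2.70 in the same controls, then 3.93, 2.17 and 2.47 in transition sheep and 2.89, 2.99 and 2.13 in chronic sheep. Control and paced columns were apart on the left and overlapped on the right. The difference of the changes was -2.31 ± 0.40 (SE) and did not pass (adjusted p = 0.0521, limma), with a range of 0.00553 to 0.9993 over the alternatives. In tissue the smallest p was that of ENSOARG00000002562, with a difference of -1.53 ± 0.45 (SE, adjusted p = 0.330, limma).

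The level itself, averaged over the 3 states, differed between the sides in some members. In tissue 4 members were higher and 5 lower in the left than in the right appendage (limma, adjusted p under 0.05), and in cardiomyocytes 10 were higher and 13 lower. Without the left tissue library labelled D27, 4 were higher and 6 lower in tissue, beside 425 and 780 of 12333 genes. Over all genes 3.25% were higher and 5.34% lower in left tissue, and 11.7% were higher and 11.3% lower in left cardiomyocytes. The members' shares in tissue were thus near those of all genes.

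The largest left excess was that of ENSOARG00000007850. In tissue its columns ran from 4.34 to 6.11 with a median of 5.04 on the left, and from 0.28 to 2.89 with a median of 0.92 on the right. In cardiomyocytes they ran from 4.35 to 5.67 with a median of 5.29 on the left, and from -1.43 to 2.62 with a median of 0.85 on the right. The sides did not overlap in either table. Left minus right was 3.85 ± 0.21 (SE, adjusted p = 1.28e-08) in tissue and 4.49 ± 0.22 (adjusted p = 1.11e-09) in cardiomyocytes, both by limma. Its transition and chronic changes against control were -0.43 and -0.63 in left tissue, and -1.63 and -0.81 in right tissue. They were -0.40 and -0.66 in left cardiomyocytes, and -1.78 and -1.73 in right ones. The side difference of its paced change did not pass in tissue (adjusted p = 0.7517, limma) or in cardiomyocytes (adjusted p = 0.3355, limma). In the posterior left atrium this gene had 5.24 ± 0.37 in transition sheep and 5.36 ± 0.40 in control sheep (SD, n = 6 each), and its change there did not pass (adjusted p = 0.669, limma).

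ENSOARG00000016256 was also higher on the left, by 1.38 ± 0.30 (SE, adjusted p = 0.0072, limma) in tissue and by 1.70 ± 0.20 (adjusted p = 3.71e-05, limma) in cardiomyocytes. In the posterior left atrium it fell by 1.31 ± 0.26 (SE, adjusted p = 0.00415, limma) in transition sheep.

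Among members higher on the right, ENSOARG00000008891 had a left minus right difference of -2.09 ± 0.25 (SE, adjusted p = 3.89e-05, limma) in tissue and -1.58 ± 0.25 (adjusted p = 0.000312, limma) in cardiomyocytes. ENSOARG00000007202 had -1.27 ± 0.18 (SE, adjusted p = 0.000222, limma) in tissue. ENSOARG00000000078 had -2.18 ± 0.38 (SE, adjusted p = 0.000688, limma) in cardiomyocytes, where its left D27 library had 0 reads.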

How the data were processed

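Whole tissue and isolated cardiomyocytes of sheep atrial appendages, and posterior left atrium tissue, were measured by RNA sequencing; libraries were prepared with the NEBNext Ultra kit, per the labels. Tools listed in the submitters' processing notes, without roles or versions, are RSEM, limma, cutadapt and bcl2fastq. The aligner, genome build, annotation and strand setting were not given in the sources used here. Log2 values were deposited by the authors, 1 column per sheep and region, so the technical replicates in the labels had been merged. The 91 samples gave 48 columns, and every column was matched to a sample (0 unmatched). In the appendage tables every value was the log2 of whole reads plus 0.5 on the scaled CPM scale, within a tolerance of 0.05 reads, with scaling factors of 0.828 to 1.14. In the posterior left atrium at most 10.6% of the values of a column lay within this tolerance, near the share that it passes by chance. Whole reads could thus not be found there. In limma 0.465% of genes had a p under 0.1 for the set of sheep (10% by chance). A set difference had therefore been taken out after the log, by an unrecorded step.

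The deposited log2 values were tested in limma 3.58.1 (R 4.3.3) with a mean-variance trend, without a further pseudocount and for genes with a mean of 0 or more. The Benjamini-Hochberg adjustment ran over every gene tested in a table, and 0.05 was the threshold. Appendage models held the 6 group means. Sheep entered as a random effect (consensus correlation 0.294 in tissue and 0.470 in cardiomyocytes), since the labels show that left and right samples come from the same animal. The planned tests fitted the log2 unit. They were checked on simulated tables. Controls and sham sheep were joined, and p-values of comparisons between states measure the spread between sheep. Those of comparisons between the sides rest on left and right columns of the same sheep, with the same correlation taken for all genes. Genes with near-identical copies or overlapping neighbours could not be told apart. Members, comparisons and lists were chosen with earlier results of these data known. At most 2 IDs were named per direction and comparison: the lowest summed paced change, the largest change per direction among those past the threshold (otherwise the smallest p), the highest tissue level, and the genes nearest the limit of the rule. The gene and marker lists are symbols and could not be used. Alternatives were other limits, filters, normalisations, weights, voom, left-out sheep and fits without the sheep block.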

Additional observations from a re-analysis of the deposited data

Results flagged for a closer look

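Groups of 6 posterior left atrium sheep were checked for a sheep far from the others in the 16 named members, 32 groups in all. Chance flags about 1 in 20 groups, and 5 values were far from the rest. In control C1 ENSOARG00000011858 had 4.25 beside 5.06 to 5.23 in the other controls. In the same sheep ENSOARG00000020384 had 2.54 beside 4.17 to 4.83. ENSOARG00000007634 had 1.84 in transition sheep G5 beside -5.04 to -3.48 in the other transition sheep, and -3.77 in control G36 beside 1.33 to 2.42 in the other controls. ENSOARG00000007202 had -0.51 in transition sheep G13 beside 1.92 to 3.25 in the others.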

How the results depend on the processing

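The rule took 161 genes at a limit of -0.6, 36 at -1.0, 124 from left and 53 from right columns alone (64 and 48 shared), and 108 from chronic and 63 from transition columns alone (63 and 44 shared), against 71. Leaving out a sheep gave 65 to 83, of which 55 to 69 were among the 71 (55 without C1, 56 without D19 or S4, 57 without S3). With the median of the columns it took 68 genes, 51 of them shared. In the posterior left atrium 27 to 40 members passed in either direction with a sheep left out, 13 to 23 in the G sheep, and 9 in the S, C and D sheep alone. Of all genes 1431 to 2175, 251 to 960 and 243 passed in these fits. For chronic against transition in tissue, the fit without the replicate block of the sheep called 4 members, sample quality weights 9, voom 1, the left appendage alone 1, the right alone 0, and the fit without the left library labelled D27, an alternative chosen after seeing the data, 0; leaving out a sheep gave 0 to 2. In cardiomyocytes the fit without the replicate block called 3 and quality weights 4. Leaving out a sheep gave 0 to 4, with 4 without D23. Over all genes the tissue fits without the block and with quality weights called 46 and 214 higher, and 37 and 137 lower. Those in cardiomyocytes called 11 and 25 higher, and 13 and 13 lower. In tissue voom called 4 of all genes higher and 3 lower, and the left appendage alone 3 higher and 5 lower. With a sheep left out 0 to 19 of all genes passed in tissue and 1 to 99 in cardiomyocytes. For the side difference of the paced change in cardiomyocytes a pseudocount of 10 reads called 2, quality weights 2 and voom 1. Leaving out a sheep gave 0 to 2. Over all genes the pseudocount, weights and voom, in that order, called 7, 26 and 2 higher and 3, 11 and 2 lower. With a sheep left out 0 to 35 of all genes passed. Left against right called 16 members in tissue with quality weights (6 to 10 with a sheep left out) and 11 in cardiomyocytes without the replicate block (16 to 23 with a sheep left out). Over all genes the fit with weights called 962 higher and 1081 lower, and that without the block 346 higher and 427 lower. For this comparison 633 to 1306 of all genes passed in tissue with a sheep left out, and 1804 to 3116 in cardiomyocytes. No gene named for a test changed direction under the alternatives run for that test. Scaled by library totals, the median of all genes for left minus right moved to -0.11 in tissue and -0.06 in cardiomyocytes. The calls that rest on few sheep are limited by the 3 sheep per group, and low members by a few reads per library.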
